A study of Homo sapiens with 6 samples.

Results

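Metallothioneins are small cytosolic proteins in which clusters of cysteine hold zinc and copper, and they buffer these metals and take up toxic ones such as cadmium. Their genes are switched on by MTF1, a zinc finger transcription factor that senses free zinc and binds metal response elements in the promoters of its targets. The zinc exporter gene SLC30A1, which codes for the plasma membrane transporter ZnT1, is another target of MTF1, so that metallothioneins and SLC30A1 together report on the zinc response of a cell. The 8 genes described here were chosen by name: the metallothionein genes MT2A, MT1E, MT1F, MT1G, MT1M and MT1X, the regulator MTF1 and the exporter SLC30A1. Of these 8 names, 7 were rows among the 36651 genes of the deposited table, and MT1M was not analysed here. MT1G fell below the filter on low values, so that 6 of the 8 entered the test of 12141 genes.

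The table gives levels in 3 control libraries and 3 libraries labelled siMTA1, all from HCT116, a human colorectal carcinoma line of epithelial morphology. MTA1 is a subunit of the nucleosome remodelling and deacetylase complex NuRD. The treated samples are called siMTA in their descriptions and CrMTA1 in their titles, which leaves the way in which MTA1 was altered uncertain, and the control samples are called wild type in their titles. No treatment with zinc, another metal or a glucocorticoid is named in the labels. MTA1 averaged 66.75 ± 0.855 FPKM in control and 45.5 ± 2.16 FPKM in treated cells (SD, n = 3 each). All 3 treated libraries were below all controls (log2 fold change −0.54, limma adjusted p = 0.000376). FPKM, the unit throughout, divides the fragments of a gene by its length and by the library total.

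The steps of the low values of short genes implied a depth of 42900000 to 65400000 fragments in control and 57200000 to 66700000 fragments with siMTA1. Of all 12141 tested genes, 18.2% passed the threshold (limma, adjusted p under 0.05), 744 higher and 1463 lower with siMTA1. That split depended on the scaling, with 1011 higher and 895 lower under quantile normalization, 1000 and 939 under upper-quartile scaling, and 1128 and 802 under median centring. Leaving out control library 2 lowered the count to 1046, and leaving out siMTA1 library 2 to 1066. Of 7 epithelial markers, EPCAM was at 254.77 to 317.57 FPKM in the 6 libraries and CDH1 at 27.98 to 35.31 FPKM. The keratin genes KRT8 (1309.65 to 1742.78 FPKM), KRT18 (917.61 to 1215.64 FPKM) and KRT19 (3105.61 to 3612.19 FPKM) were higher still. CDH17 and VIL1, found in differentiated intestinal epithelium, stayed at or below 0.06 FPKM. Of the 5 tested, CDH1 was higher with siMTA1 (limma adjusted p = 0.00874), and KRT8 (0.0148) and KRT18 (0.0336) were lower. Of 18 listed markers of fibroblasts, leukocytes, endothelium, liver, neurons and astrocytes, 17 stayed below 1 FPKM, and COL1A1 reached 2.65 FPKM.

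The metallothionein genes lie side by side on chromosome 16 of GRCh38 and code for proteins of like length, and their coding sequences show why fragments of one gene can resemble those of another. The 4 coding sequences of the expressed metallothioneins are shown here for this likeness and for their cysteine codons. Each is taken from the principal transcript of GENCODE 29, in lower case with TGC and TGT, the codons for cysteine, in capitals.
MT2A: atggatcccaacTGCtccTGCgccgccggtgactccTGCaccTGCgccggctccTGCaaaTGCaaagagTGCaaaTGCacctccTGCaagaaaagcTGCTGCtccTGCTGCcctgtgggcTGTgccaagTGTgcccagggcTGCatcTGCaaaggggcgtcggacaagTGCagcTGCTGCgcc
MT1E: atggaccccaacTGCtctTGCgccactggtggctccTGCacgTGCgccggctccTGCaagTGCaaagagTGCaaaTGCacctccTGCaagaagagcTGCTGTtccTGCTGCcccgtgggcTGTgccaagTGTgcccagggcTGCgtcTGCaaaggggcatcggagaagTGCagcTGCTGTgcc
MT1X: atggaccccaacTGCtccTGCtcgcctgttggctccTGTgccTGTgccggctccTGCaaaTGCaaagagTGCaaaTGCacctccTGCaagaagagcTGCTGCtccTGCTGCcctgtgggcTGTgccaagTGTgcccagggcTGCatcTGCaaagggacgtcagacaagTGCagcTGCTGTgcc
MT1F: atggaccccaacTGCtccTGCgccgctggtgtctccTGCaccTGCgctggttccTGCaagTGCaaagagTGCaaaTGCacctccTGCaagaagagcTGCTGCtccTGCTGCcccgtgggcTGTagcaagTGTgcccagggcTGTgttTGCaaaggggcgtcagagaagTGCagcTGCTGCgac

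Each of these coding sequences spans 183 bases without the stop codon, or 61 codons, of which 20 (32.8%) code for cysteine. MT2A matched MT1E at 169 of the 183 bases and MT1X at 169, and the least alike of the 4, MT1X and MT1F, matched at 162 bases (88.5%). MT1G, which was nearly silent here, was the closest to MT2A, with 174 identical bases (95.1%). Of all stretches of 50 bases in the annotated transcripts of a gene, 3.02% of those of MT2A, 7.10% of those of MT1E, 1.22% of those of MT1F and 16.5% of those of MT1G also occurred in a transcript of another gene. For MT1X the share was 18.3%, most of it with AC026461.1, a gene annotated on the same strand over its first exons. How the authors assigned fragments that fit several genes has not been given in the sources used here, so the split among metallothioneins, and the level of MT1X above all, is uncertain. For MTF1 the share was 0.64%, and no stretch of SLC30A1 occurred elsewhere. MTF1 overlaps AL929472.4 on the other strand, and whether strand entered the counting is likewise not stated in these sources.

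The promoters of the members were read for the core of the metal response element, because they are the sequence through which MTF1 is known to act. The core was searched as TGCACNC and TGCGCNC on both strands, in the 250 bases before the gene start in RefSeq's annotation of GRCh38.p14, where 4 of the 8 members had an entry. MT2A held 7 matches, MT1X 4, SLC30A1 1 and MTF1 0. None of these matches overlapped another. RefSeq starts MT2A at 56608584, inside its GENCODE span from 56608199, and SLC30A1 at 211579161, upstream of its GENCODE start at 211578742. The windows, and so the counts, depend on the annotation used. Among 35116 promoters of the same length, 24.8% held at least 1 match, 0.37% at least 4 and 0.031% at least 7. The matches are shown in capitals with up to 4 bases on either side, read along the gene's own strand, so that a match on the opposite strand begins with G and ends with GCA.
MT2A chr16:56608334-56608348: ccgcTGCACCCagcc
MT2A chr16:56608412-56608426: gcccGTGTGCAgagc
MT2A chr16:56608427-56608441: cgggTGCGCCCggcc
MT2A chr16:56608441-56608455: ccagTGCGCGCggcc
MT2A chr16:56608492-56608506: gggcGTGTGCAggca
MT2A chr16:56608526-56608540: ctttTGCACTCgtcc
MT2A chr16:56608572-56608583: gcgcTGCACTCc
MT1X chr16:56682316-56682330: gcggTGCGCCCggcg
MT1X chr16:56682344-56682358: ttgcTGCACCCggcc
MT1X chr16:56682388-56682402: gggcGGGTGCAagga
MT1X chr16:56682413-56682427: cctcTGCGCCCggcc
SLC30A1 chr1:211579200-211579214: ttccGAGTGCAaagc

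These genes are on the plus strand, except SLC30A1 on the minus strand. MT1H and MT4, metallothionein genes whose levels were not analysed here, held 8 and 3 matches in the same window. MT1B, which was close to 0 in all 6 libraries, held 3. Among MT2A, MT1X and MT1B, the only metallothioneins searched that had both a window and a level, the order by matches and by level was the same. Over all these few genes it was not, as SLC30A1 with 1 match and MTF1 with 0 were above MT1B in level. A match describes these letters and does not show binding.

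None of the 6 tested genes passed the threshold between siMTA1 and control cells, and the 3 values of the groups overlapped for each of them. With limma, 0 of 6 had an adjusted p under 0.05 and 0 of 6 an unadjusted p under 0.05 (lowest unadjusted p = 0.122), against 18.2% of all tested genes called (6.13% higher and 12.1% lower). Of the 6 fold changes, 5 were above 0 and 1, that of MT2A, below. The groups did not overlap in 39.1% of all tested genes and in 0 of these 6. The median log2 fold change of the 6 genes was 0.06, and that of all tested genes was −0.05. A fold change is on the log2(FPKM + 1) scale, positive where the level was higher with siMTA1, and makes the change of low genes look smaller. All errors of means are SD with n = 3, and intervals are 95% intervals from the fit. All sample descriptions carry the tag 3rd, whose meaning the labels do not give. No label ties a replicate to its own culture, and p-values then measure only how these samples spread, possibly for technical reasons. Values per library are listed in the order of replicates 1, 2 and 3.

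MT2A, the main metallothionein of most human cell lines, was by far the most abundant member. The gene (ENSG00000125148.6) spans chr16:56608199-56609497 of GRCh38 on the plus strand. For MT2A, control values were 222.92, 205.95 and 206.49 FPKM and treated values 205.03, 208.97 and 216.16 FPKM. The highest value belonged to a control library and the lowest to a treated one, and the other 4 lay between them. Mean levels were 211.8 ± 9.65 and 210.1 ± 5.64 FPKM. The log2 fold change of MT2A was −0.01 (SE 0.06, limma adjusted p = 0.906), with an interval of −0.14 to 0.11, which corresponds to a ratio between 0.910 and 1.08 for FPKM + 1. Its sign turned positive under quantile normalization, upper-quartile scaling, median centring, TPM and array weights and without control library 1 or siMTA1 library 1, and it was called under none of these. With 199 as its rank from the top among tested genes, MT2A was among the most abundant transcripts of these cells, and its spread within groups exceeded that of 17.9% of tested genes.

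MT1E (ENSG00000169715.14) spans chr16:56625475-56627112 of GRCh38 on the plus strand and was the next in level by FPKM. For MT1E, control values were 15.55, 14.57 and 17.83 FPKM and treated values 18.25, 19.09 and 15.98 FPKM. Treated libraries 1 and 2 were above all control libraries, but treated library 3 was below control library 3. The means of 15.98 ± 1.67 and 17.8 ± 1.61 FPKM gave a log2 fold change of 0.15 (SE 0.09, interval −0.05 to 0.34, limma adjusted p = 0.257). This was the largest difference among the 6 genes, although that of MT1X was larger with array weights and without control library 1 or siMTA1 library 2. Without control library 1 or siMTA1 library 2, the difference of SLC30A1 also exceeded that of MT1E. Without siMTA1 library 2, that of MTF1 did so too. The fold change of MT1E was 0.09 without control library 2, and 0.22 without control library 3. With array weights, which give each library its own weight in the fit, MT1E passed at 0.25 (limma adjusted p = 0.0221).

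MT1X (ENSG00000187193.8), at chr16:56682424-56684196 on the plus strand, varied more between libraries than most genes of the table. For MT1X, control values were 15.33, 10.81 and 12.70 FPKM and treated values 14.99, 13.56 and 13.16 FPKM. Both the highest and the lowest value came from control libraries, and the treated libraries lay between them. The means were 12.9 ± 2.27 and 13.9 ± 0.962 FPKM, with a log2 fold change of 0.11 (SE 0.11, interval −0.13 to 0.34, limma adjusted p = 0.508). Its spread within groups exceeded that of 93.5% of tested genes. The fold change was −0.01 without control library 2, the lowest, and MT1X passed with array weights at 0.30 (limma adjusted p = 0.0306).

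MT1F (ENSG00000198417.6), at chr16:56657694-56660698 on the plus strand, was a minor member. For MT1F, control values were 2.01, 1.61 and 1.82 FPKM and treated values 1.83, 2.15 and 1.56 FPKM. The treated libraries held both the highest and the lowest value. Means were 1.81 ± 0.20 and 1.85 ± 0.295 FPKM, and the log2 fold change was 0.01 (SE 0.09, interval −0.19 to 0.22, limma adjusted p = 0.926). If the FPKM were computed over all annotated exons, these values correspond to 163 to 271 fragments per library, against 12423 to 18106 for MT2A. Leaving out control library 2 (−0.04) or siMTA1 library 2 (−0.06) turned the sign.

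MT1G (ENSG00000125144.13), at chr16:56666731-56668065 on the minus strand, was listed at 0 in 5 libraries and at 0.02 FPKM in siMTA1 library 3, a value worth about 1 fragment. It was not tested. Of 16 other metallothionein genes and pseudogenes looked for, 5 were listed and all lay below the filter. The pseudogene MT1DP had control values of 0.36, 0.28 and 0.64 FPKM and treated values of 0.09, 0.47 and 0.34 FPKM. The processed pseudogene MT1P1 had control values of 0.50, 0.39 and 0.42 FPKM and treated values of 0.19, 0.24 and 0 FPKM. The groups did not overlap for MT1P1, but none of these values was worth more than about 5 fragments, and no test was made. MT1B reached 0.09 FPKM in 1 control library and MT1P3 0.10 FPKM in 1 treated library. MT1XP1 was at 0.32 FPKM in 1 treated library and 0.08 FPKM in 1 control library.

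MTF1 itself, the regulator, was expressed at a low and even level. The gene (ENSG00000188786.9) spans chr1:37809567-37859620 of GRCh38 on the minus strand. For MTF1, control values were 1.64, 1.67 and 1.67 FPKM and treated values 1.79, 1.66 and 1.92 FPKM. Treated libraries 1 and 3 were above the controls and treated library 2 lay within them. The means of 1.66 ± 0.0173 and 1.79 ± 0.13 FPKM gave a log2 fold change of 0.07 (SE 0.07, interval −0.08 to 0.22, limma adjusted p = 0.502). The level of a transcription factor's transcript does not show its activity, which for MTF1 is known to be set by zinc.

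SLC30A1 (ENSG00000170385.9), at chr1:211571568-211578742 on the minus strand, showed no difference past the threshold. For SLC30A1, control values were 3.50, 2.80 and 2.78 FPKM and treated values 3.41, 2.71 and 3.43 FPKM. Libraries of both groups fell into a higher set at or above 3.41 FPKM and a lower set at or below 2.80 FPKM. Means were 3.03 ± 0.41 and 3.18 ± 0.41 FPKM, with a log2 fold change of 0.06 (SE 0.09, interval −0.16 to 0.27, limma adjusted p = 0.710).

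**Figure D1:**
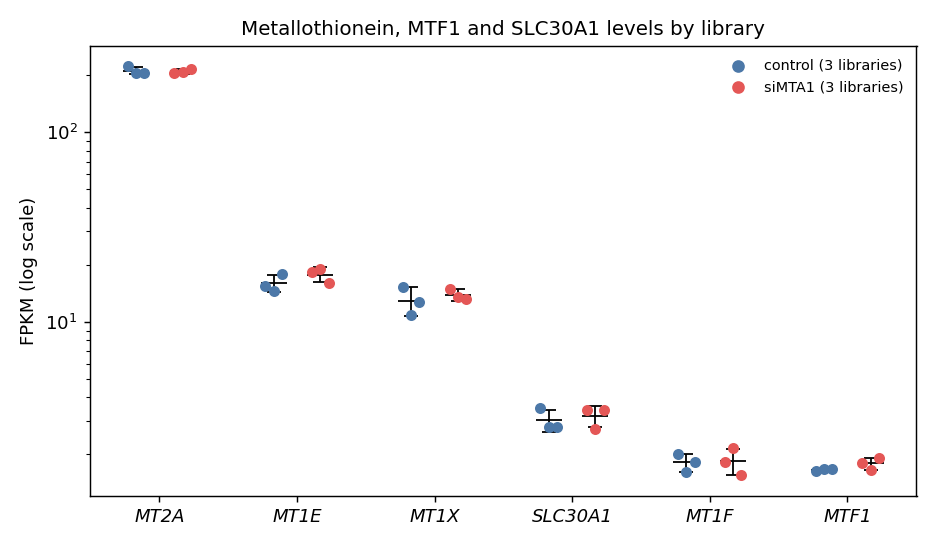
Levels of the 6 tested genes in FPKM on a log axis. Each point is 1 library (blue, control, and red, siMTA1, 3 each) and the bars give mean and SD; MT2A spans 205.03 to 222.92 FPKM, more than 10 times above MT1E and MT1X, and the points of the groups overlap for each gene.

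By mean FPKM over the 6 libraries the order was MT2A (210.9), MT1E (16.9), MT1X (13.4), SLC30A1 (3.11), MT1F (1.83), MTF1 (1.73) and MT1G (0.0033). The ranges over the 6 libraries overlapped between MT1E and MT1X and between MT1F and MTF1, and did not between the other neighbours. Compared within libraries, MT1E was above MT1X in 6 of 6 and MT1F above MTF1 in 4 of 6. The order of MT1E and MT1X also rests on the gene length behind the FPKM, which the sources used here do not give. All annotated exons of MT1X span 1773 bases and include a retained intron, whereas its principal transcript has 450 bases. The principal transcripts of MT2A, MT1E and MT1F are longer, with 786, 704 and 690 bases. If the FPKM were computed over all exons, then per length of the principal transcript, an alternative chosen after the data were seen, MT1X would stand at 52.9 and MT1E at 25.2, with MT2A at 348.6 and MT1F at 5.01, in FPKM scaled to that length. MT2A was the most abundant metallothionein on both scales.

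The summed level of the metallothioneins, most of it MT2A, did not differ between the groups beyond the spread of the libraries. The sum over MT2A, MT1E, MT1X, MT1F and MT1G was 255.81, 232.94 and 238.84 FPKM in control libraries 1, 2 and 3 and 240.10, 243.77 and 246.88 FPKM in siMTA1 libraries 1, 2 and 3. The 3 treated libraries lay within the range of the control libraries. Means were 242.5 ± 11.9 and 243.6 ± 3.39 FPKM, a difference of 1.05 FPKM (exact two-sided permutation test, p = 0.9, with 0.1 as the smallest p that 3 against 3 libraries allow). The difference was 8.69 under upper-quartile scaling. On the TPM scale, which brings each library to a larger total, it was 9.44 TPM, which is not comparable in size with the others. The sign of the difference turned without control library 2 (−3.74 FPKM), without control library 3 (−0.792 FPKM) and without siMTA1 library 3 (−0.595 FPKM).

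MT2A accounted for 87.3 ± 0.993% of this sum in control and 86.2 ± 1.17% with siMTA1. The share of MT1E was 6.60 ± 0.755% and 7.30 ± 0.727%, that of MT1X 5.32 ± 0.676% and 5.71 ± 0.474%, and that of MT1F 0.746 ± 0.0492% and 0.759 ± 0.125%. The exact two-sided permutation tests of the 4 shares gave p = 0.3, 0.2, 0.4 and 0.9, and the smallest p adjusted over the 4 was 0.533. Whether any pair of metallothioneins differed in its change was tested on the difference of log2(FPKM + 1) in each library, over 6 pairs. The largest such difference, between MT2A and MT1E, was −0.16 (exact two-sided permutation test, p = 0.2, adjusted p = 0.75). With 3 against 3 libraries no share and no pair could have passed a threshold of 0.05, so these tests do not show that the genes changed alike. Per length of the principal transcript, the mean share of MT2A over the 6 libraries would be 80.8% and that of MT1X 12.2%, in place of 86.8% and 5.51%. These lengths depend on the annotation used. RefSeq starts MT2A at 56608584, inside the GENCODE span that begins at 56608199, and a shorter MT2A transcript would raise its share.

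**Figure D2:**
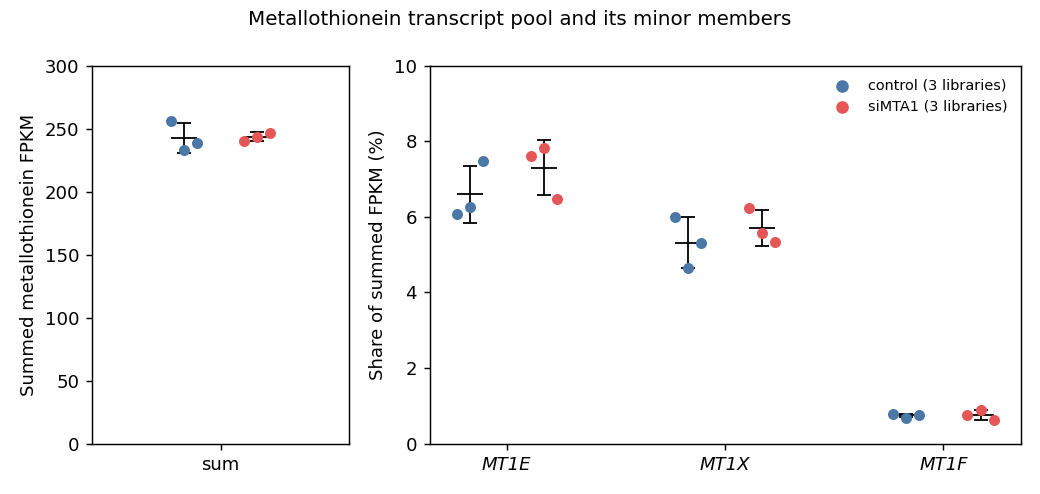
Summed metallothionein FPKM (left) and the percent share of MT1E, MT1X and MT1F in it (right), with 1 point per library and mean and SD as bars. Sums of the 3 siMTA1 libraries lie within the control range of 232.94 to 255.81 FPKM, and the shares of the groups overlap.

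Across the 6 libraries the correlations between members had both signs. Pearson's r of log2(FPKM + 1) was 0.67 between MT1X and SLC30A1, 0.62 between MT2A and SLC30A1 and 0.47 between MT2A and MT1X. It was −0.39 between MT2A and MT1E. For MT1F it was 0.60 with MT1E, 0.57 with MT1X and −0.62 with MTF1. These values describe 6 libraries that share their depth and scaling across genes, and do not show whether the members move together. Among 7084 genes averaging 5 FPKM or more, the 5 whose level followed the summed metallothionein level most closely were MEAF6 (r = 0.96), RAB12 (0.95), ZNF787 (0.95), LRRFIP2 (0.95) and COX6C (0.93). None of these 5 was called between the groups, with adjusted limma p from 0.735 to 0.987. They were picked for following a sum that hardly differed between the groups, so the absence of calls follows from that choice. The sum ranged only from 232.94 to 255.81 FPKM over the 6 libraries, so these r rest on small differences.

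Other genes of zinc transport were counted from the SLC30 and SLC39 families, of which 7 further SLC30 genes and 14 SLC39 genes were listed. SLC30 proteins move zinc out of the cytosol, to the outside or into organelles, and SLC39 proteins move it in. Of 5 further SLC30 genes tested, 1 was lower with siMTA1 and 0 were higher (by unadjusted limma p under 0.05, 0 higher and 2 lower), and their median log2 fold change was −0.02. Of 11 SLC39 genes tested, 2 were lower and 0 higher (by unadjusted limma p under 0.05, 1 higher and 3 lower), a share of 18.2% that equals the 18.2% of all tested genes. The median of the SLC39 genes was −0.13, with 9 of 11 values below 0, against −0.05 for all tested genes.

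SLC39A10, a plasma membrane importer whose gene MTF1 is known to repress when zinc is ample, showed the largest difference of these families. For SLC39A10, control values were 9.64, 8.65 and 8.12 FPKM and treated values 6.41, 6 and 6.18 FPKM. All 3 treated libraries were below the lowest control library. Means were 8.80 ± 0.772 and 6.20 ± 0.206 FPKM, and the log2 fold change was −0.44 (SE 0.07, interval −0.60 to −0.29, limma adjusted p = 0.00358). The call held under all 18 alternatives, with a log2 fold change between −0.50 and −0.38.

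SLC39A8, an importer of zinc, manganese and cadmium, had control values of 2.66, 2.46 and 2.31 FPKM and treated values of 2.09, 1.73 and 1.96 FPKM. The groups did not overlap, and the log2 fold change was −0.25 (SE 0.07, limma adjusted p = 0.0435). This call ended under 11 of 17 alternatives, among them leaving out any 1 of the 6 libraries. Leaving out control library 1, 2 or 3 gave a limma adjusted p of 0.110, 0.112 or 0.0512, and leaving out treated library 1, 2 or 3 gave 0.0524, 0.137 or 0.0773. The SLC39A8 call also ended under quantile normalization (limma adjusted p = 0.0717), upper-quartile scaling (0.0690), median centring (0.0945) and TPM (0.0628).

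SLC30A6, which works with SLC30A5 to load zinc into the secretory pathway, had control values of 2.42, 2.18 and 2.72 FPKM and treated values of 2.02, 1.71 and 1.78 FPKM. The groups did not overlap, and the log2 fold change was −0.28 (SE 0.08, limma adjusted p = 0.0387). Its call ended under 9 of 17 alternatives, which include leaving out control library 1 (limma adjusted p = 0.0722), control library 3 (0.106), siMTA1 library 2 (0.122) and siMTA1 library 3 (0.0887). Upper-quartile scaling (limma adjusted p = 0.0593), median centring (0.0735) and TPM (0.0506) ended it as well, and it held under quantile normalization (0.0477). The partner gene SLC30A5, named after its values were seen, was at 9.05 ± 0.265 and 8.95 ± 0.86 FPKM (log2 fold change −0.02, limma adjusted p = 0.878).

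The most abundant zinc transporter gene was SLC39A7, which releases zinc from the endoplasmic reticulum and is named here after its values were seen. It had control values of 101.59, 104.41 and 104.27 FPKM and treated values of 111.18, 119.92 and 115.24 FPKM, with all treated libraries above all control libraries. Its log2 fold change of 0.16 (SE 0.05, limma adjusted p = 0.0682) did not pass. It passed under upper-quartile scaling (limma adjusted p = 0.0351), median centring (0.0306) and array weights (0.0279).

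**Figure D3:**
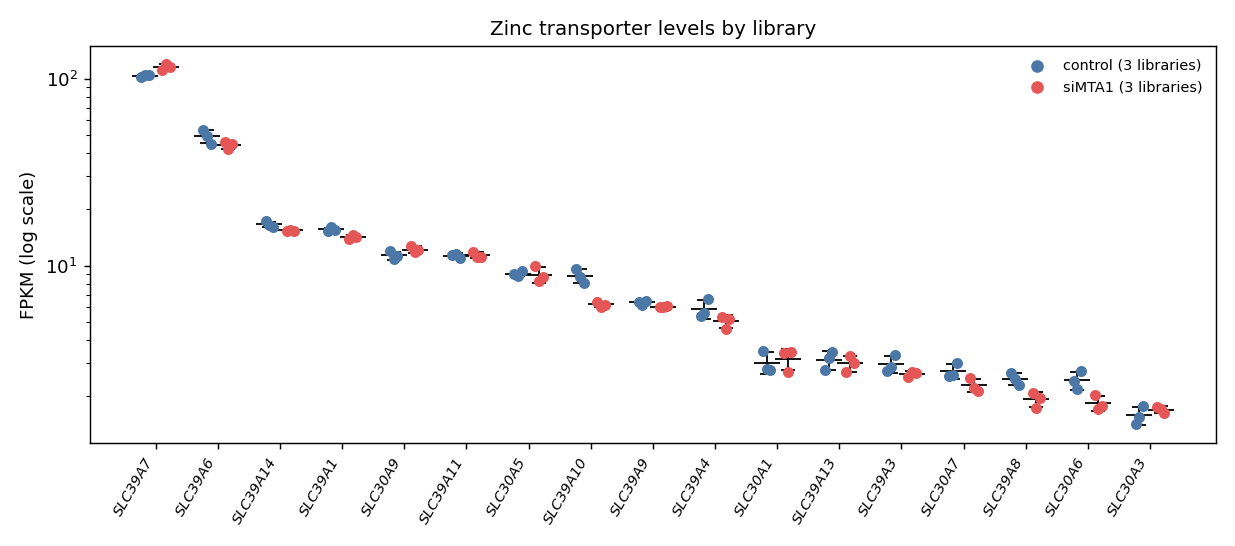
FPKM of the tested SLC30 and SLC39 genes on a log axis, ordered by mean level, with 1 point per library (blue, control, and red, siMTA1) and mean and SD as bars. SLC39A7 is the highest at 101.59 to 119.92 FPKM, and the points of SLC39A10, SLC39A8 and SLC30A6 are among those that do not overlap between the groups.

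Genes known to respond to metals or oxidants beside metallothioneins went both ways. Of 15 such genes tested, 2 were higher and 2 lower with siMTA1 (by unadjusted limma p under 0.05, 4 higher and 6 lower), where 6.13% of all tested genes were higher and 12.1% lower. Their median log2 fold change was −0.06. HMOX1, the heme-degrading enzyme that cadmium and oxidants induce, had control values of 7.28, 8.18 and 7.87 FPKM and treated values of 11.13, 10.12 and 11.75 FPKM. All treated libraries were above all controls, and the log2 fold change was 0.45 (SE 0.07, limma adjusted p = 0.00354). NDRG1, which nickel and low oxygen induce, had a log2 fold change of 1.22 (SE 0.10, limma adjusted p = 0.000103).

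The lower members were TXN, the thioredoxin gene, and HSPA1B, a stress-induced HSP70 gene. TXN was at 155.4 ± 11.9 FPKM in control and 121.8 ± 11.9 FPKM in treated cells (log2 fold change −0.35, limma adjusted p = 0.0190). Its call ended without control library 2 (limma adjusted p = 0.0593) and with no filter on low values (0.118). HSPA1B, which shares near-identical sequence with HSPA1A and is therefore uncertain, was at 36.5 ± 1.06 and 30.8 ± 2.69 FPKM (log2 fold change −0.24, limma adjusted p = 0.0383). The call ended under 9 of 18 alternatives, among them quantile normalization, upper-quartile scaling, median centring, TPM and no filter, with a limma adjusted p of 0.0568 to 0.138. Leaving out control library 2 (limma adjusted p = 0.120), control library 3 (0.0877), siMTA1 library 1 (0.113) or siMTA1 library 3 (0.0775) ended it as well. Without control library 2, or with no filter, 2 genes of the list were called in place of 4, and with array weights 10 were.

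Of 6 genes tested among MTF1 cofactors and zinc-sensing proteins, 2 were lower and 0 higher (by unadjusted limma p under 0.05, 0 higher and 3 lower), where 12.1% of all tested genes were lower and 6.13% higher. EP300, an MTF1 coactivator gene named after its values were seen, was not called (limma adjusted p = 0.974). SLC11A2, a transporter of iron and other divalent metals, was at 4.47 ± 0.287 FPKM in control and 3.51 ± 0.0954 FPKM in treated cells. Its log2 fold change was −0.28 (limma adjusted p = 0.0176). The SLC11A2 call ended without siMTA1 library 2 (limma adjusted p = 0.0619) and with no filter (0.0720). GPR39, a receptor for extracellular zinc, was at 3.92 ± 0.359 and 3.11 ± 0.252 FPKM (log2 fold change −0.26, limma adjusted p = 0.0427). That call ended under 9 of 17 alternatives, with a limma adjusted p of 0.0833 without control library 2, 0.113 without control library 3, 0.135 without siMTA1 library 2 and 0.0893 without siMTA1 library 3. Rescaling ended it too, with a limma adjusted p of 0.0761 under quantile normalization, 0.0716 under upper-quartile scaling, 0.0849 under median centring and 0.0555 as TPM.

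**Figure D4:**
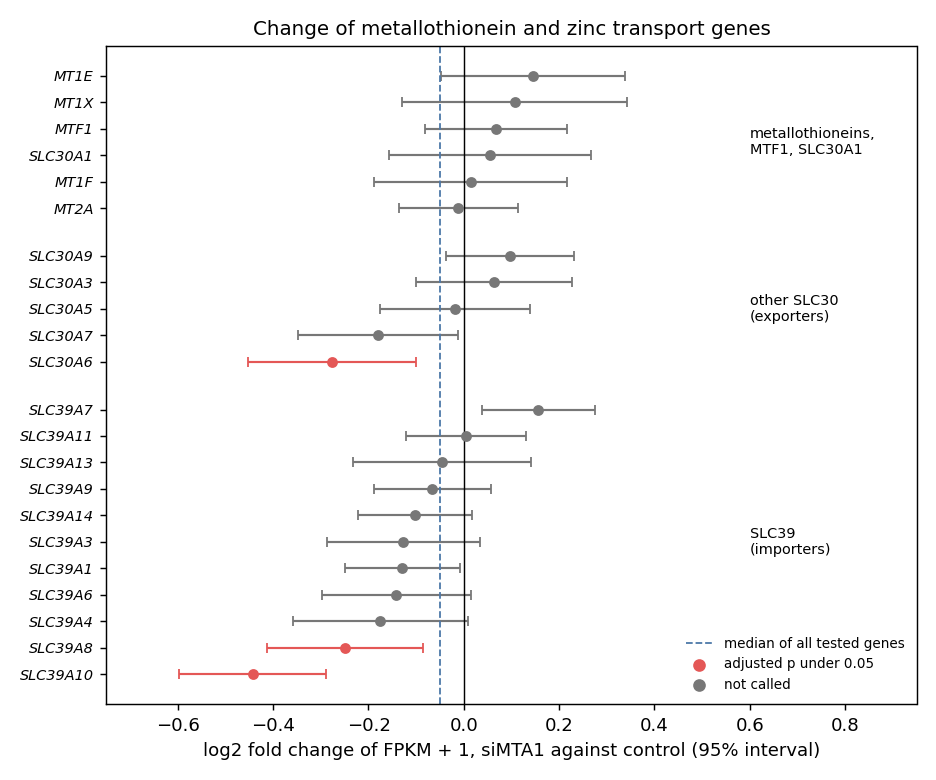
Log2 fold change of FPKM + 1 with its 95% interval for the 6 tested members and the tested SLC30 and SLC39 genes; red marks an adjusted p under 0.05, and the dashed line is the median of all tested genes at −0.05. The intervals of all 6 members include 0, while those of the 3 called genes, SLC30A6, SLC39A8 and SLC39A10, lie below it.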

How the data were processed

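RNA sequencing of polyA-selected RNA gave 6 directional paired-end libraries, per the labels' protocols. The authors deposited FPKM per gene, printed to 2 decimals; cutadapt, TopHat2, edgeR and GRCh38 are named in the submitters' processing notes with no version or role. The counting method and gene length have not been given in the sources used here. Columns were matched to samples by name. Genes averaging 1 FPKM or more were tested with limma 3.58.1 in R 4.3.3 on log2(FPKM + 1), with empirical Bayes moderation and an intensity trend, two-sided, without covariates, adjusted by Benjamini and Hochberg over all tested genes. The procedure was tested on simulated data. Values per library were tested with exact two-sided permutation tests.

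The members and gene lists were chosen with earlier results of these data known. Named genes were all members, and of each list the called genes, at most 4 by adjusted p, or the 1 with the smallest, every detected metallothionein, and the 5 genes most like the summed metallothionein level by Pearson r. A symbol carried by 2 identifiers (SERPINA3) was taken from the one paired with it in the reference names. For the implied depth, low FPKM of genes under 150 bases were read as whole fragments within 0.04, with exon lengths of GENCODE 29. Alternatives covered pseudocounts, filters, scalings, limma settings, a replicate block, gene length and each library left out. Python 3.11.15 with pandas 2.3.3 made the tables.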

Additional observations from a re-analysis of the deposited data

How the results depend on the processing

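With no filter on low values 676 genes were called in all, and 6 in the other gene lists together in place of 17. With a mean of at least 5 FPKM required, 11 were called in those lists. With array weights 4049 genes were called, 28 of them in the lists, and 2 of the metallothionein, MTF1 and SLC30A1 genes (MT1E and MT1X); under the other 17 alternatives none of those tested was called, which with a mean of at least 5 FPKM were MT2A, MT1E and MT1X alone. Leaving out each library gave 1046 to 1773 genes called in all and 10 to 15 in the lists. The log2 fold change of MT2A was 0.0087 under quantile normalization, 0.034 under upper-quartile scaling, 0.043 under median centring, 0.0050 as TPM and 0.015 with array weights. Leaving out each library, it was −0.032 to 0.026 for MT2A, 0.085 to 0.22 for MT1E, −0.0072 to 0.23 for MT1X, −0.061 to 0.088 for MT1F, 0.034 to 0.10 for MTF1 and 0.011 to 0.14 for SLC30A1, the difference of the metallothionein sum was −3.74 to 7.69 FPKM, and that of the MT1F share was −0.0493 to 0.0758 percentage points. The cause was not tested. With the replicate number as a block, 3031 genes were called, 8 of them in the metal and stress list in place of 4, SLC39A7 passed (limma adjusted p = 0.0409), and none passed of the metallothionein, MTF1 and SLC30A1 genes. Same-numbered libraries correlated in their deviations from the group means at r of 0.33, 0.02 and 0.22, and control library 2 correlated more with siMTA1 library 3 (r = 0.07), so the numbers were not taken as pairs. Near 2 FPKM, as for MT1F and MTF1, the intervals allow differences of up to about 0.22 on the log2(FPKM + 1) scale.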

Other observations

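Copper, which metallothioneins also bind, has its own transporters and chaperones. Of 12 tested genes of copper handling, 6 were lower with siMTA1 and 0 higher (by unadjusted limma p under 0.05, 0 higher and 7 lower), where 12.1% of all tested genes were lower, and the median log2 fold change was −0.17 against −0.05 for all tested genes. ATOX1, the chaperone that carries copper to the export pumps, had control values of 3.51, 3.41 and 3.68 FPKM and treated values of 1.93, 2.46 and 2.16 FPKM (log2 fold change −0.51, SE 0.07, limma adjusted p = 0.00268). SCO2, which delivers copper to cytochrome oxidase and is a known p53 target, was at 8.54 ± 0.821 and 6.24 ± 0.229 FPKM (SD, n = 3 each, log2 fold change −0.40, limma adjusted p = 0.00682). STEAP2, a metal reductase gene, had a log2 fold change of −0.38 (limma adjusted p = 0.0151) and COX11, another assembly factor of cytochrome oxidase, of −0.26 (limma adjusted p = 0.0194). The importer gene SLC31A1, named after its values were seen, was at 5.19 ± 0.261 and 4.75 ± 0.462 FPKM (SD, n = 3 each, limma adjusted p = 0.324). The number of lower genes in this list was 3 without control library 2 or 3, 4 without siMTA1 library 1 or 3, and 2 without siMTA1 library 2, and it was 3 under quantile normalization and 1 with no filter on low values. The SCO2 call ended with no filter (limma adjusted p = 0.0511). The STEAP2 call ended without siMTA1 library 2 (limma adjusted p = 0.0584) and with no filter (0.0993), and the COX11 call without control library 2 or 3 (0.0572 and 0.0537) or siMTA1 library 2 or 3 (0.0715 and 0.0547), with no filter (0.0676) and under quantile normalization (0.0513).

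Glucocorticoids are known to induce metallothionein genes, MT2A among them. Of 9 tested glucocorticoid targets or receptor genes, 2 were higher with siMTA1 and 0 lower (by unadjusted limma p under 0.05, 4 higher and 1 lower), where 6.13% of all tested genes were higher. FKBP5, a chaperone of the receptor, had control values of 4.63, 4.69 and 4.64 FPKM and treated values of 7.38, 7.21 and 7.11 FPKM (log2 fold change 0.54, SE 0.05, limma adjusted p = 0.000364). The clock gene PER1 had control values of 3.55, 3.53 and 3.93 FPKM and treated values of 5.26, 5.40 and 5.91 FPKM (log2 fold change 0.48, SE 0.07, limma adjusted p = 0.00207). Both calls held without any 1 library. The receptor gene NR3C1, also named after its values were seen, was at 1.83 and 1.41 FPKM on average (log2 fold change −0.23, limma adjusted p = 0.0738).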
